A study of Homo sapiens with 6 samples.

Results

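The core machinery of cytosolic DNA sensing was followed through 10 genes, chosen by symbol, in the human cell line MDA-MB-231, which was established from a triple-negative breast carcinoma. They are CGAS, STING1, TBK1, IKBKE, IRF3, TREX1, SAMHD1, IFI16, AIM2 and DDX41. The probe annotation used here names a probe set for 7 of the 10, among 14884 named genes in all, and each of the 7 has 1 probe set. IKBKE, TREX1 and IFI16 were not analysed here. Cells labelled NR1D1 KO and control cells gave 3 GeneChip whole-transcript arrays each, and all 6 cultures had been kept in 200 µM H2O2 for 72 h. NR1D1 encodes REV-ERBα, a heme-binding nuclear receptor that represses transcription. The labels do not say how the knockout was made, how many clones it stands for or what the control cells carried. The titles speak of biological replicates without naming separate cultures, so the spread behind every p-value may be technical. Since every array comes from treated cells, a response to the peroxide cannot be told apart from a difference that was there before it. The annotation used here leaves 37519 of 53617 probe sets without a symbol and gives none the name NR1D1, so the targeted transcript was not analysed here.

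DNA in the cytosol, from a virus, a damaged nucleus or leaking mitochondria, is bound by cGAS, which makes the messenger cGAMP. cGAMP binds STING on the endoplasmic reticulum, and STING then travels to the Golgi and recruits the kinases TBK1 and IKKε, which phosphorylate IRF3 and so switch on type I interferon and chemokine genes. AIM2 instead assembles an inflammasome on DNA, while enzymes such as TREX1 and SAMHD1 limit the nucleic acid that could set the sensors off.

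Of the 7 measured genes, AIM2 was lower and DDX41 higher in NR1D1 KO cells, and the other 5 did not pass the test. Each of the 14884 genes was tested with limma on its log2 values, and a gene was called where its p, adjusted over all of them by the Benjamini-Hochberg method, was under 0.05. That rule called 9.49% of all genes, which is the background for 2 of 7. The arrays of the groups did not overlap for 5 of the 7 genes, against 28.7% of all genes. The median log2 change of the 7 was -0.077, against 0.0039 over all genes. Without control replicate 1, 2 or 3 or NR1D1 KO replicate 2 the count fell to 1, since DDX41 was lost.

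**Figure D1:**
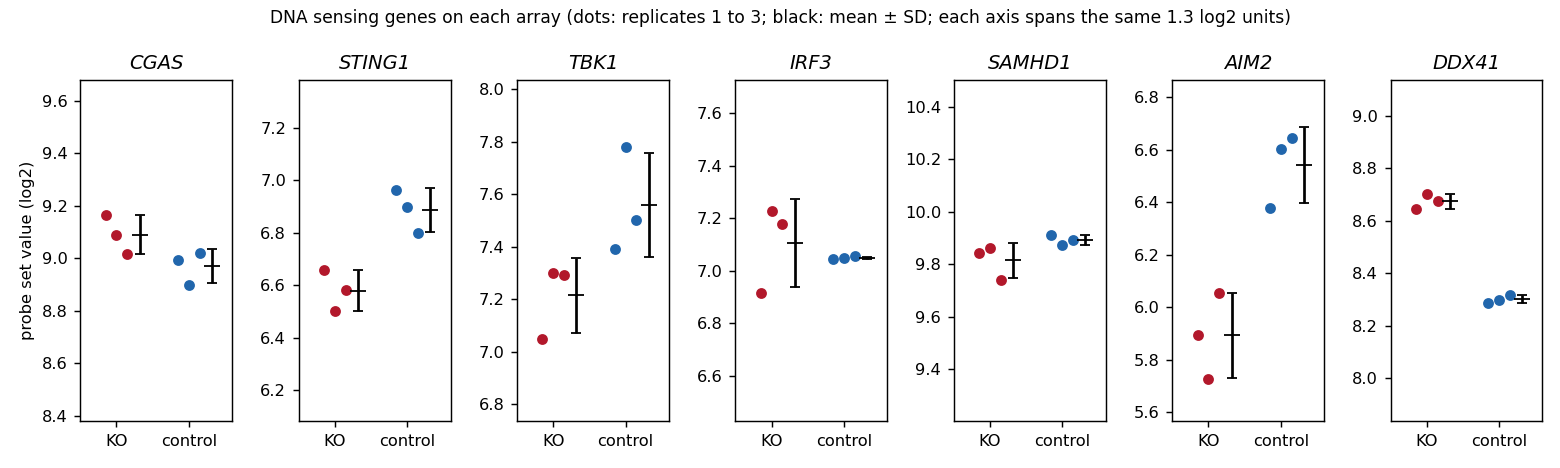
Log2 probe set value of each of the 7 measured genes on every array, NR1D1 KO left (red) and control right (blue), with mean and SD in black (n = 3 each) and every axis spanning the same number of log2 units. AIM2 lies between 5.73 and 6.06 on KO arrays and between 6.38 and 6.64 on control arrays, and DDX41 is the gene whose KO arrays all lie above the control arrays.

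AIM2 encodes a HIN200-family protein that binds double-stranded DNA and recruits the adaptor ASC to activate caspase-1. It measured 5.89, 5.73 and 6.06 on NR1D1 KO arrays 1 to 3, against 6.38, 6.60 and 6.64 on control arrays 1 to 3 (log2). Every KO array lay below every control array, with 0.322 log2 units between the nearest values. The means were 5.89 ± 0.163 in KO and 6.54 ± 0.144 in control cells (SD, n = 3 each), so AIM2 was 1.57-fold lower (log2 change -0.65, SE 0.113, limma adjusted p = 0.0101). In RNA from whole cultures, fewer cells with the transcript and less transcript per cell cannot be told apart. The call held in all 16 alternative settings, with an adjusted p no higher than 0.0444.

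DDX41 encodes a DEAD-box helicase that takes part in splicing and has been described as a DNA sensor upstream of STING. It measured 8.64, 8.70 and 8.68 on NR1D1 KO arrays, against 8.29, 8.30 and 8.32 on control arrays (log2). Both groups were tight, and the nearest values of the groups lay 0.326 log2 units apart. The means were 8.67 ± 0.0294 in KO and 8.30 ± 0.0161 in control cells (SD, n = 3 each), a 1.29-fold rise (log2 change 0.37, SE 0.0732, limma adjusted p = 0.0168). Without control replicate 1, 2 or 3 or KO replicate 2 the adjusted p was 0.0649, 0.0561, 0.0637 and 0.0611 in that order. The rise also falls short of a 1.5-fold rule.

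The promoters of both called genes are shown because these are the members whose transcripts differed, together with that of CXCL10, an interferon-induced chemokine gene from the far end of the pathway. Of the 10 genes, 7 have a promoter in the RefSeq table used here (GRCh38.p14). Each sequence is the 250 bases before the annotated start, read 5′ to 3′ on the gene's strand, and capitals mark matches on either strand to 2 kinds of motif. The first is GAAA, 2 bases of any kind and GAAA again, the letters of an interferon response element, and the second is GGGA, 4 bases of any kind and CC, letters found in many NF-κB sites. AIM2 lies on the minus strand at chr1:159076767-159077016, DDX41 on the minus strand at chr5:177516962-177517211 and CXCL10 on the minus strand at chr4:76023498-76023747.
AIM2: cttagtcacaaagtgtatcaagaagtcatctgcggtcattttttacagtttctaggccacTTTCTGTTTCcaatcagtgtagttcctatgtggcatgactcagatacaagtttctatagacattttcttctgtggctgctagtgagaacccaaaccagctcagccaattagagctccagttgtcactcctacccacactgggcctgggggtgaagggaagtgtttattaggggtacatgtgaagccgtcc
DDX41: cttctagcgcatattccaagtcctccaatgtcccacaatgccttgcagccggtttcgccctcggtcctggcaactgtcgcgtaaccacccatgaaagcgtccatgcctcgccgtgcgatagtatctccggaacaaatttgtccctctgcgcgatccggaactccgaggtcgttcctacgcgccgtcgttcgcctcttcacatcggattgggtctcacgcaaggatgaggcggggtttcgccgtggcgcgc
CXCL10: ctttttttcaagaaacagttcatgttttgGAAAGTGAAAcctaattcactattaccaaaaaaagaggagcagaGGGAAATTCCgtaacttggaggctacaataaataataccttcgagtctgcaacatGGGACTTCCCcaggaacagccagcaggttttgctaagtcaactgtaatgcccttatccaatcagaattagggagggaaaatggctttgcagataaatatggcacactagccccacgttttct

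The interferon response letters occur once before AIM2, in the reverse orientation from 190 to 181 bases before the start, and once before CXCL10, from 221 to 212 bases before it. Among all 35116 promoters of this length, 3.02% hold them on either strand. The NF-κB letters occur at 2 places before CXCL10, starting 177 and 122 bases before the start, once before IKBKE and in 22.6% of all promoters. The DDX41 stretch holds neither. AGGTCA, the half-site bound by REV-ERB receptors, occurs in 12.1% of all promoters and in none of the stretches of the 7 genes with a promoter. The E-box CACGTG, in 6.34% of all promoters, occurs before TBK1, from 31 to 26 bases before the start. None of these motifs overlaps another in the stretches of the 7 genes or of CXCL10. A match is a run of letters, and binding was not measured.

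CGAS, which encodes the enzyme that makes cGAMP, had means of 9.09 ± 0.074 in NR1D1 KO and 8.97 ± 0.065 in control cells (log2, SD, n = 3 each). Its arrays read 9.16, 9.09 and 9.02 in KO cells, against 8.99, 8.90 and 9.02 in control cells. The lowest KO array lay just under the highest control array, so the groups overlapped narrowly. The 95% interval of the change ran from 0.953-fold to 1.24-fold (limma adjusted p = 0.451).

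STING1 encodes the cGAMP receptor and adaptor of the pathway. Its arrays read 6.66, 6.50 and 6.58 in NR1D1 KO cells, against 6.96, 6.90 and 6.80 in control cells (log2). The groups did not overlap, but the 1.24-fold lower mean missed the threshold (log2 change -0.31, SE 0.0853, limma adjusted p = 0.0616). It passed when the dimmest 25% or 50% of genes were left out of the test (adjusted p = 0.0332 and 0.0162) and with a trended, robust variance prior (adjusted p = 0.0392), none of which changes its values. With 1 array left out the adjusted p ran from 0.0704 to 0.188.

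TBK1, the kinase gene whose product phosphorylates both STING and IRF3, read 7.05, 7.30 and 7.29 in NR1D1 KO cells, against 7.39, 7.78 and 7.50 in control cells (log2). The groups lay apart, by only 0.0926 log2 units, while the arrays of one group spread over more than that. The change of -0.34 (SE 0.122) did not pass the test (limma adjusted p = 0.132), and its 95% interval ran from 0.65-fold to 0.956-fold. It passed when the dimmest 50% of genes were left out (adjusted p = 0.0482).

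IRF3, the transcription factor gene at the end of this relay, read 6.91, 7.23 and 7.18 in NR1D1 KO cells, against 7.04, 7.05 and 7.06 in control cells (log2). The control arrays were nearly alike and the KO arrays lay on both sides of them. Its change was 0.058 (limma adjusted p = 0.792), and -0.0021 without KO replicate 2.

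SAMHD1, which encodes a hydrolase of deoxynucleotide triphosphates that limits DNA synthesis from viral RNA, read 9.84, 9.86 and 9.74 in NR1D1 KO cells, against 9.91, 9.87 and 9.89 in control cells (log2). The groups did not overlap, yet the nearest arrays were 0.0114 log2 units apart. The change of -0.077 did not pass (limma adjusted p = 0.621), with a 95% interval of 0.839-fold to 1.07-fold. For CGAS, IRF3 and SAMHD1 the intervals thus leave out changes of 1.5-fold in either direction, as far as the spread between these arrays goes.

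**Figure D2:**
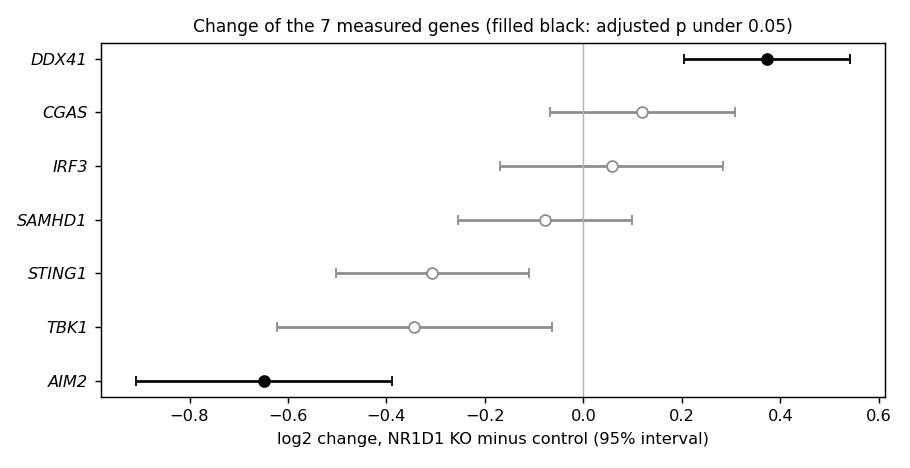
Log2 change of the 7 measured genes, NR1D1 KO minus control, with 95% intervals from limma, ordered by change (n = 3 arrays each). AIM2 at -0.65 and DDX41 at 0.37 are filled as called, and the intervals of STING1 and TBK1 lie below 0 although their adjusted p missed the threshold.

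**Figure D3:**
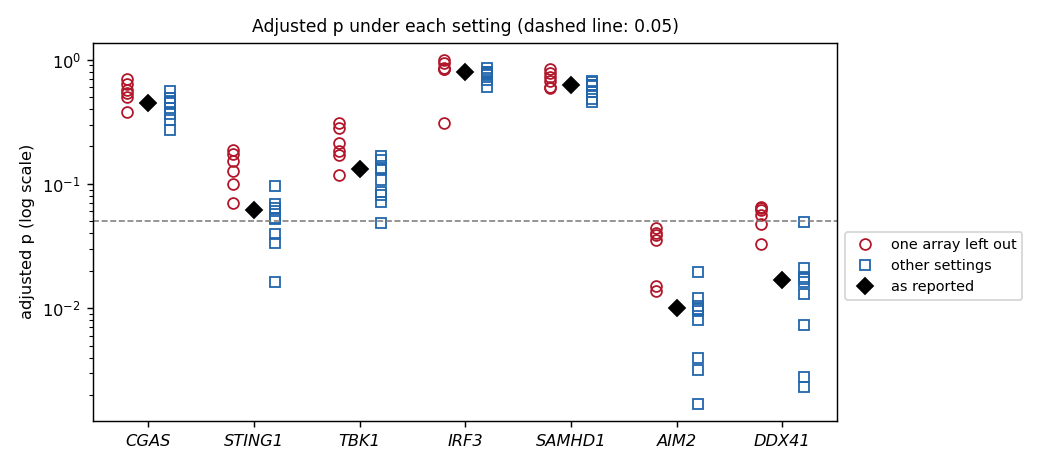
Adjusted p of each of the 7 genes (log axis) as reported (black), with 1 array left out (red) and under the other processing settings (blue), with the threshold dashed. AIM2 stays below the line throughout, DDX41 and STING1 have values on both sides of it, and TBK1 lies below it in 1 setting.

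The genes around the members were counted by role in 9 lists, beside 4.74% of all genes called in each direction. Of 10 genes for cGAMP breakdown and transport only ENPP1 was measured. ENPP1, the cell-surface hydrolase that degrades cGAMP outside cells, read 9.86, 9.97 and 9.86 in NR1D1 KO cells, against 10.63, 10.58 and 10.61 in control cells (log2), far apart for so little spread. It fell by 0.71 on the log2 scale (1.64-fold, SE 0.0765, limma adjusted p = 0.00107).

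Of 17 adaptors and regulators of TBK1 and IKKε 12 were measured. Of these 4 fell and none rose, 10 had a change below 0, and the median log2 change was -0.23. SIKE1, whose product binds both kinases and restrains them, read 7.87, 7.59 and 7.73 in NR1D1 KO cells, against 8.59, 8.65 and 8.65 in control cells (log2). The gap between the groups was 0.719 log2 units and SIKE1 was 1.87-fold lower (limma adjusted p = 0.000844), and 9 of its 20 coding neighbours on chromosome 1 were called lower too. TANK, a scaffold that joins TBK1 to TRAF proteins, read 6.34, 6.56 and 6.55 in KO cells, against 7.03, 7.38 and 7.27 in control cells (log2). It was 1.68-fold lower (limma adjusted p = 0.00518). Both calls held in all 16 alternative settings. TRAF3, an adaptor with ubiquitin ligase activity that links sensors to TBK1, was 1.31-fold lower (adjusted p = 0.0268), and OPTN, an autophagy receptor that binds TBK1, 1.31-fold lower (adjusted p = 0.0332). OPTN missed the threshold without any 1 array, with an adjusted p of 0.0535 to 0.113. TRAF3 missed it without any 1 array other than KO replicate 1, with an adjusted p of 0.0219 to 0.0924 over the 6. The count of falls was then 2 to 3.

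Of 26 genes for STING trafficking and regulation 15 were measured, of which 1 fell and none rose, with a median log2 change of -0.012. The fall was SEC23A, a coat subunit of the vesicles that carry cargo out of the endoplasmic reticulum, at 8.69 ± 0.147 in NR1D1 KO and 9.19 ± 0.0741 in control cells (log2, SD, n = 3 each, limma adjusted p = 0.0168). Of its 20 coding neighbours on chromosome 14, 4 were also called lower. Leaving out control replicate 2 or 3 lost the call (adjusted p = 0.0631 and 0.0598).

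**Figure D4:**
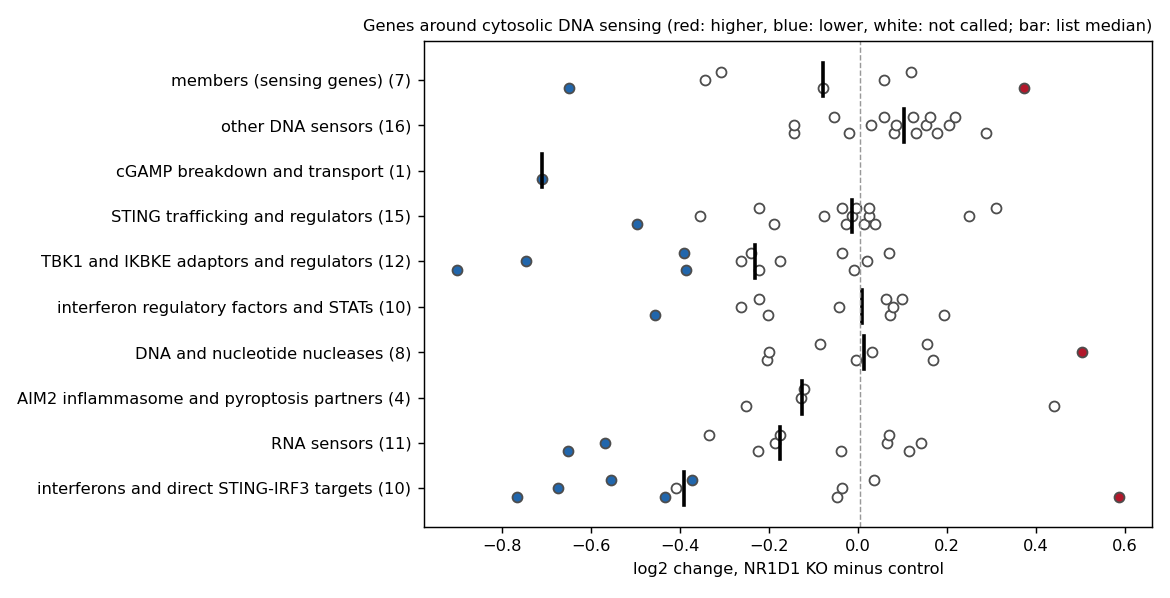
Log2 change, NR1D1 KO minus control, of every measured gene in the members and the 9 lists around them (number measured in brackets), red where called higher, blue where called lower and white where not called, with list medians as bars and the median of all genes dashed. The adaptors of TBK1 and IKKε and the listed IRF3 targets have medians of -0.23 and -0.39, and only the list that holds ENPP1 alone lies lower, at -0.71.

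Downstream of IRF3, 10 genes listed as targets of STING and IRF3 were measured, of which 5 fell and 1 rose, with a median log2 change of -0.39. The 5 interferon genes of the same list were not analysed here. With any 1 array left out 3 or 4 genes fell, and 3 in each case other than KO replicate 3. CXCL11, a chemokine gene, was 1.7-fold lower (5.27 ± 0.0697 in NR1D1 KO and 6.04 ± 0.145 in control cells, limma adjusted p = 0.00228). CXCL10, whose promoter is printed above, read 3.81, 3.83 and 4.10 in KO cells, against 4.76, 4.77 and 4.23 in control cells (log2). Control replicate 3 stood nearest to the KO arrays, and CXCL10 was 1.59-fold lower (adjusted p = 0.0332). Its probe set is dim, below the level of 4.91 that bounds the dimmest 25% of genes, and had no detection call, so the size of its fold is uncertain. The call was lost when control replicate 1 (0.112), control replicate 2 (0.106), KO replicate 1 (0.102) or KO replicate 2 (0.107) was left out. IFIT3, an antiviral gene that IRF3 can induce directly, was 1.47-fold lower (8.60 ± 0.0871 in KO and 9.15 ± 0.0612 in control cells, adjusted p = 0.00518). Of its 20 coding neighbours 3 were called lower too, among them IFIT2 of the same list. RSAD2, the antiviral gene of viperin, went against these and was 1.5-fold higher (6.35 ± 0.0843 in KO and 5.76 ± 0.0922 in control cells, adjusted p = 0.00491), and 5 of its 20 coding neighbours were called higher too. The other falls, named after their values were seen, were IFIT2 (1.35-fold, adjusted p = 0.0118) and ATF3 (1.29-fold, adjusted p = 0.0461).

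Of 14 interferon regulatory factors, STATs and IRF2-binding proteins 10 were measured, of which 1 fell and none rose, with a median log2 change of 0.01. IRF1, a transcription factor induced by interferon and by NF-κB, read 6.98, 7.08 and 7.13 in NR1D1 KO cells, against 7.48, 7.48 and 7.59 in control cells (log2), without overlap. It was 1.37-fold lower (limma adjusted p = 0.0114) and missed the threshold without control replicate 3 (0.0564).

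Of 21 other DNA sensors and cofactors 16 were measured. None of these passed the limma test, while 12 had a change above 0 (median 0.105). An unadjusted p under 0.05 was found for 3 of the 16, against 22.8% of all genes. By the trended, robust prior 2 rose, and these are MRE11, a nuclease of the break-sensing complex (log2 change 0.29, adjusted p = 0.097 as reported and 0.0392 with that prior), and HNRNPA2B1, an RNA-binding protein that has been described as a nuclear DNA sensor (0.21, adjusted p = 0.142 and 0.0427). Of 18 nuclease genes 8 were measured. EXO1, a DNA exonuclease of repair and replication, was the 1 called. It was higher, at 7.81 ± 0.0719 in NR1D1 KO and 7.31 ± 0.103 in control cells (log2, SD, n = 3 each, limma adjusted p = 0.0102).

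Of 18 listed partners of AIM2 in inflammasomes and pyroptosis only 4 were measured, and none of these passed the limma test. An unadjusted p under 0.05 was found for 2 of the 4, against 22.8% of all genes. The cytokine gene IL18 stood at 6.11 ± 0.117 in NR1D1 KO and 5.66 ± 0.262 in control cells (log2, SD, n = 3 each, adjusted p = 0.0862), and passed with the dimmest 25% of genes left out (0.0487). GSDMD, the pore-forming gasdermin gene, stood at 6.90 ± 0.155 in KO and 7.15 ± 0.123 in control cells (adjusted p = 0.207). Of 17 genes listed as RNA sensors 11 were measured, among them MAVS, TRIM25, RNF135 and OASL, which are partners of sensors rather than sensors. Of the 11, 2 fell and none rose (median log2 change -0.17, and -0.0486 without control replicate 2 or -0.0947 without KO replicate 1). They were OASL, an interferon-induced gene that binds RIG-I (6.95 ± 0.0238 in KO and 7.60 ± 0.196 in control cells, adjusted p = 0.00779), and TLR3 (6.25 ± 0.0805 in KO and 6.81 ± 0.113 in control cells, adjusted p = 0.00687). Of the 17 coding neighbours of TLR3, 4 were called lower and 1 higher.

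The genomic neighbours of AIM2 and DDX41 were set beside them to show what their surroundings did. Among the 10 named coding genes on each side of DDX41 on chromosome 5, 16 of 20 had a change above 0, 4 were called higher and none lower, and their median was 0.161. Its nearest named coding neighbours were PDLIM7 and DOK3 on one side and TMED9 and N4BP3 on the other. They changed by 0.28, -0.00068, 0.097 and -0.30, and none of these 4 was called. Around AIM2 on chromosome 1, 15 of 20 neighbours had a change below 0, but 1 was called lower and none higher, and the median was -0.089. On one side the nearest coding genes with a named probe set were CD1E and MNDA, a sensor-family relative of AIM2, at -0.11 and 0.08. On the other they were CADM3 and DUSP23, at -0.071 and 0.042, and none of these 4 was called. Any genes closer to AIM2 or DDX41 that lack a named probe set were not analysed here. The part of the neighbourhood in the change of either gene was not tested.

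**Figure D5:**
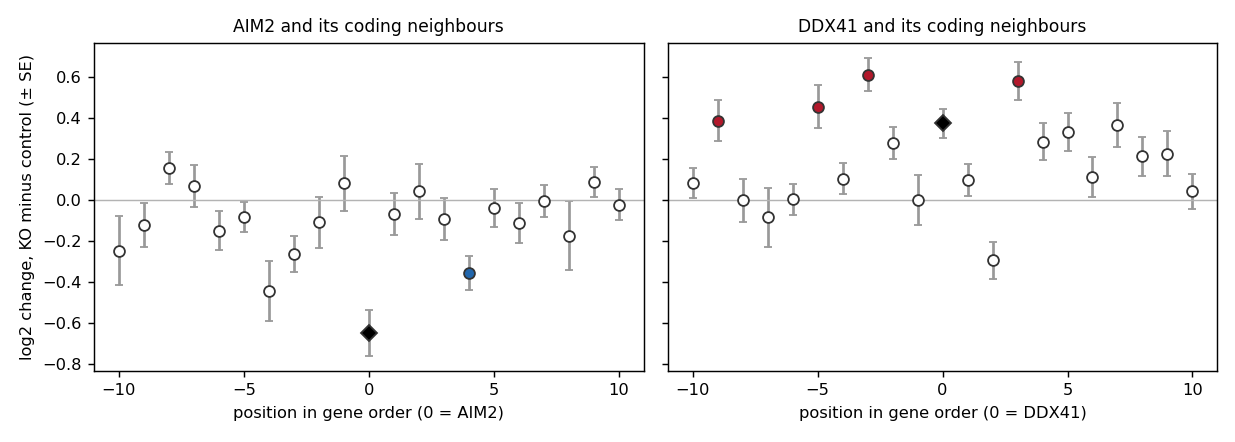
Log2 change (± SE) of AIM2 and DDX41 (black diamonds) and of the 10 named coding genes on each side in gene order, red where called higher and blue where called lower. AIM2 at -0.65 lies below all 20 neighbours, and DDX41 at 0.37 lies within the range of its own.

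AIM2 is also a gene of leukocytes, so markers of other cell types were read. Of 10 leukocyte markers 4 were measured, and CD68, a lysosomal glycoprotein gene also expressed by many tumour cells, was the 1 called, at 10.4 ± 0.126 in NR1D1 KO and 10.9 ± 0.0323 in control cells (log2, SD, n = 3 each, adjusted p = 0.0167). The log2 of the summed level of the 4 was 10.39 to 10.64 on KO arrays and 10.93 to 10.97 on control arrays, and nearly all of it is CD68. The other 3 did not pass, with log2 changes of -0.29 for CD14, 0.0026 for LYZ and 0.053 for SPI1. The defining markers PTPRC and CD3E were not among them, and whether leukocyte RNA bears on the change of AIM2 was not tested. Of 6 fibroblast markers 2 were measured, DCN and LUM, and neither was called by limma (adjusted p = 0.922 and 0.752, with 0 at an unadjusted p under 0.05), with a log2 summed level of 5.23 to 5.92 on KO and 5.40 to 5.56 on control arrays. Of 4 measured markers that are high in this line, VIM was higher (9.35 ± 0.08 in KO and 9.01 ± 0.0479 in control cells, adjusted p = 0.0337). CD44 was lower (9.51 ± 0.0973 in KO and 9.86 ± 0.0187 in control cells, adjusted p = 0.0324). EGFR and AXL were not called, with log2 changes of 0.14 and 0.21 (limma adjusted p = 0.353 and 0.158). Of 4 measured markers chosen beforehand as low in this line, GATA3 was lower (6.75 ± 0.0304 in KO and 7.48 ± 0.11 in control cells, adjusted p = 0.00166) and EPCAM higher (7.62 ± 0.0989 in KO and 7.22 ± 0.095 in control cells, adjusted p = 0.0286). Both lay above 6.13, the level that bounds the dimmest 50% of genes, so their values here do not bear out that choice. ESR1 and PGR, which were not called, lay below it. Leaving out any 1 array ended the call of CD44 (limma adjusted p = 0.052 to 0.112). It could end the calls of CD68, VIM and EPCAM but not that of GATA3. No detection calls were at hand, so none of these could be called absent.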

How the data were processed

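Total RNA of 3 NR1D1 KO and 3 control arrays was amplified and biotin-labelled with GeneChip whole-transcript kits, per the labels' protocols. The authors deposited 1 value per probe set and array, read here as log2 from a range of 1.16 to 13.75, and array medians of 5.18 to 5.22 show that they had been normalized between arrays. How the arrays were scanned, normalized and summarized is not given in the sources used here. An error in the scale would alter all folds. Of 53617 probe sets, 16098 had 1 gene symbol in the platform annotation, none had several and 37519 had none. No name changed when matched to a RefSeq table (GRCh38.p14), which also gave the gene order. Any name without a match there was kept as annotated. The brightest probe set by mean stood for a gene, and no gene was filtered for a low level.

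The comparison used limma (version 3.58.1, R 4.3.3, lmFit and eBayes, two-sided) over 14884 genes, with Benjamini-Hochberg adjustment. On simulated data the fit recovered 45% of changes of 0.5 log2 units and 86% of changes of 1, and 3.76% of its calls were false. Fewer genes were changed there than were called here, and changes under 0.5 were not simulated. Precision is limited by the number of arrays (median SE of a log2 change 0.101). Named genes are the members and, in each list, up to 4 called genes with the largest change. Where none was called, the 2 with the smallest p were taken. The 2 nearest coding genes with a named probe set on each side of a called member were added. IFIT2, ATF3, CD14, LYZ, SPI1, EGFR and AXL fall outside that rule. The members and lists were chosen with earlier results of these data known. Planned comparisons of AIM2 with IFI16 and of TBK1 with IKBKE were not run, since 1 gene of each pair was not analysed here. Alternatives changed the normalization, the filter on dim genes, the handling of probe sets, the variance prior, array weights, the replicate block, the call rule and the set of arrays. Python 3.11.15 with matplotlib 3.10.9 drew the figures.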

Additional observations from a re-analysis of the deposited data

How the results depend on the processing

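Of 112 recalculations for the 7 members, 102 kept direction and side of the threshold. Many of them could not change direction. Each member has 1 probe set, and the dim filters, variance prior, replicate block and call rule leave its log2 change as it was. With 1 array left out, the log2 change ran from -0.73 to -0.57 for AIM2, 0.36 to 0.39 for DDX41, -0.35 to -0.27 for STING1, -0.43 to -0.23 for TBK1, 0.082 to 0.156 for CGAS, -0.101 to -0.04 for SAMHD1 and -0.0021 to 0.154 for IRF3. The changes that crossed the threshold were those of STING1 (-0.31) with the dimmest 25% or 50% of genes left out or a trended, robust prior, of TBK1 (-0.34) with the dimmest 50% left out, where fewer genes were tested, and of DDX41 (0.37) under the rule of 1.5-fold with an unadjusted p under 0.05 and without control replicate 1, 2 or 3 or KO replicate 2. The median of the members ran from -0.101 to -0.04 and that of the RNA sensors from -0.232 to -0.0486 with 1 array left out.

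The count of called genes was 1412 as reported, 723 to 1049 with 1 array left out, 1953 with the trended, robust prior, 1050 with the replicate block and 558 under the 1.5-fold rule (235 higher and 323 lower). With the replicate block AIM2 (adjusted p = 0.0197) and DDX41 (0.0497) were still called, and TRAF3 (0.0617), CXCL10 (0.0765), CD44 (0.0734) and VIM (0.0787) missed the threshold. Deviations from the group means correlated at 0.055, 0.068 and -0.106 between same-numbered KO and control arrays, so the numbers were not taken to pair them, and a call lost under the block is no sign of a weaker effect. IL18 passed with the block (0.046). Both dim filters raised the calls among all genes, to 1771 of 11163 tested without the dimmest 25% and 1887 of 7442 without the dimmest 50%. As reported they were 1412 of 14884, so member and list counts under these filters are to be read beside those shares. Members called were 3 of 7 with the dimmest 25% left out and 4 of 7 with the dimmest 50% left out. They were 1 under the 1.5-fold rule and 1 to 2 with 1 array left out. Under the 1.5-fold rule the calls were 2 for adaptors of TBK1 and IKKε, 3 for listed IRF3 targets, 1 for RNA sensors and 1 for markers low in the line. They were 0 for STING trafficking, regulatory factors, nucleases, leukocyte markers and markers high in the line. STING trafficking had 2 calls, 1 higher and 1 lower, with either dim filter, the trended prior or array weights. With every probe set tested it had 2 calls among 16 probe sets, both lower. Regulatory factors had 2 with the dimmest 25% left out and 3 with the dimmest 50% left out or the trended prior, and other DNA sensors had 2 with either of the last 2 settings. Partners of AIM2 had 1 with the dimmest 25% left out or the replicate block, and markers high in the line 0 with the replicate block. Listed IRF3 targets had 2 with the dimmest 50% left out, where only 5 of the 10 were tested. CXCL10, CXCL11, RSAD2 and ATF3 lie in that dimmer part and were not tested there. With 1 array left out the calls were 0 to 2 for STING trafficking, 2 to 3 for adaptors of TBK1 and IKKε and 0 to 1 for regulatory factors. They were then 4 to 5 for listed IRF3 targets (3 to 4 of them falls) and 0 to 1 for leukocyte markers. Markers high in the line had 0 to 1 and markers low in it 1 to 2.

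Uncalled changes turned sign with 1 array left out for LUM (-0.066 to 0.34), DCN (-0.019 to 0.0596), MNDA (-0.059 to 0.169), CADM3 (-0.121 to 0.0225), DUSP23 (-0.067 to 0.146) and DOK3 (-0.124 to 0.0971), and DOK3 also changed by 0.00089 after quantile normalization and 0.0089 after centring on medians. The causes were not tested. CXCL10 also missed the threshold with array weights (0.0548). With 3 arrays a group and no detection calls, small changes of dim genes could not be resolved.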

Other observations

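The called genes around the pathway differed in what their neighbours on the chromosome did. SIKE1, the restraint on TBK1 and IKKε, had 15 of 20 coding neighbours with a log2 change below 0, 9 of them called lower, and a median of -0.18. SEC23A, the vesicle coat gene, had 18 of 20 below 0 with 4 called lower (median -0.16), and RSAD2, the gene of viperin, 16 of 20 above 0 with 5 called higher (median 0.117). TLR3, an RNA sensor, had 13 of 17 below 0 with 4 called lower and 1 higher (median -0.055). IFIT3 had 3 of 20 called lower (median 0.017), EXO1 3 called higher (median 0.058), CXCL10 2 called lower (median -0.047) and CXCL11 2 called lower and 1 higher (median -0.02). The counts for IFIT3, CXCL10 and CXCL11 include called genes of their own list, since IFIT2 lies beside IFIT3 and CXCL10 beside CXCL11. OASL had 16 of 20 below 0, none of them called (median -0.092). TANK had 4 of 20 neighbours called lower and 3 called higher (median 0.039). ENPP1, TRAF3, OPTN and IRF1 fell among neighbours whose medians were 0.007, 0.046, 0.092 and -0.011, with at most 1 of 20 called lower in each. STING1 and TBK1 had neighbour medians of -0.03 and 0.0031. The part of chromosomal position in any of these changes was not tested.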
